A study of Homo sapiens with 18 samples.

Results

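The BCL2 family apoptosis regulators described here are 10 human genes: the survival members BCL2, BCL2L1 and MCL1, the pore-forming effectors BAX and BAK1, and the BH3-only members BBC3, PMAIP1, BCL2L11, BID and BIK. They were chosen by name, with earlier results of these data known, so their counts beside those of all genes are descriptions. All 10 were present among the 40916 gene symbols of every count table, and all 10 passed the low-count filter in each of the 9 comparisons made. Poly(A)-selected RNA was sequenced with a stranded, paired-end protocol in 18 libraries, which form 6 groups of 3 biological replicates. MCF10A is a non-transformed human mammary epithelial line, here carrying an H2B-GFP label, and it was grown in F12:DMEM with horse serum, EGF, hydrocortisone, cholera toxin and insulin. The HCT116 cells, from a colorectal carcinoma, carried no label and are p53-null in the submitters' description, and they were grown in McCoy's 5A medium with fetal bovine serum. Mixed cultures are 50% MCF10A and 50% HCT116 by description, and their medium is not given in the labels. Each culture type was either non-irradiated (NIR) or given 10 Gy (IR). Harvest was at day 2 according to the titles and at 72 h according to the series text, and no file resolves this. Line and medium cannot be told apart in the comparison of MCF10A with HCT116.

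The BCL2 family sets the threshold of the mitochondrial, or intrinsic, route of apoptosis. Survival members hold the effectors BAX and BAK1 in check at the outer mitochondrial membrane. BH3-only proteins relay damage, stress or death receptor signals by binding the survival members or by activating the effectors, which then permeabilise the membrane and release cytochrome c. After ionising radiation, p53 is known to induce transcription of several of these genes, BBC3 (PUMA), PMAIP1 (NOXA) and BAX among them, and many members are also controlled after transcription, MCL1 by rapid protein turnover and BID by cleavage.

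Library totals were 25737818 to 40839835 counts, and levels are given as CPM, the counts of a gene per 1000000 counts of its library. The p53 target genes CDKN1A, MDM2 and GDF15 were higher after 10 Gy in the libraries labelled HCT116 by 2.33, 1.41 and 1.36 on the log2 scale, and in MCF10A by 1.76, 0.98 and 1.88. Summed basal mammary markers (KRT5, KRT14, TP63 and 7 others) were 13023 to 14059 CPM in MCF10A NIR and 761 to 834 CPM in HCT116 NIR, where TP63 and TGFBI were at 0. Most of the HCT116 sum came from ITGB4 (477 CPM against 651 CPM in MCF10A NIR) and CDH3, which was higher in HCT116 (196 against 147 CPM). Of 10 colorectal markers, 5 reached 1 CPM in HCT116 NIR, ASCL2 was at 0 there, and their sum was 786 to 1059 CPM against 16.3 to 20.0 CPM in MCF10A NIR. Most of the HCT116 sum came from KRT19 (886 CPM against 0 in MCF10A NIR), and most of the MCF10A sum from EPHB2 (18.2 CPM). VIL1, LGALS4, CDH17 and GPA33 were under 1 CPM in HCT116 NIR. LGALS4 was lower there than in MCF10A NIR (0.0676 against 0.157 CPM). Genes of blood, endothelial and stromal cells summed to 10.6 to 47.1 CPM in any library.

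The libraries labelled as mixed held little MCF10A RNA. The MCF10A share of the RNA was estimated from genes of at least 20 CPM in 1 line and under 1 CPM in the other. It was 0.498, 0.368 and 0.395% in the 3 mixed NIR libraries and 1.24, 1.17 and 1.27% in the 3 mixed IR libraries. The means were 0.420% ± 0.068 and 1.23% ± 0.051 (SD, n = 3), and the difference of 0.806 percentage points had an exact 2-sided permutation p of 0.1, the smallest that 3 against 3 libraries allow. At these shares MCF10A RNA would supply between 0.0760% (PMAIP1) and 2.40% (MCL1) of a member's level in mixed NIR, and between 0.199% (BIK) and 5.87% (MCL1) in mixed IR. These are rough values, because low counts of the genes in the other line were not subtracted and the SD leaves out the choice of genes. Stricter gene choices gave 0.339 and 0.313% in mixed NIR and 1.03 and 0.980% in mixed IR. Single markers spread widely. In mixed NIR, KRT5 was 0.724 CPM and TGFBI 31.2 CPM, against 2883 and 2555 CPM in MCF10A NIR. In bulk samples, fewer cells of a type and less RNA per cell cannot be told apart. The mitochondrial share of counts also moved with the groups. It was 5.10 to 5.32% in MCF10A NIR, 6.06 to 6.35% in irradiated MCF10A, 8.42 to 8.75% in HCT116 NIR, 11.5 to 12.3% in HCT116 IR, 8.37 to 8.73% in mixed NIR and 12.0 to 12.7% in mixed IR. Its part in the results below was not tested.

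Irradiation changed the RNA of 9 of the 10 members in each culture type, at an adjusted p below 0.05 over all genes tested (edgeR quasi-likelihood test, Benjamini-Hochberg). In MCF10A, 5 members rose (PMAIP1, BCL2L1, BBC3, BAK1, BAX) and 4 fell (BCL2, BIK, BCL2L11, MCL1), while 55.4% of all 15154 genes tested were called, 26.2% higher and 29.2% lower. HCT116 had 8 members higher and only BCL2 lower, against 52.5% of all genes called, 25.3% higher and 27.2% lower. The mixed cultures likewise had 8 members higher and BCL2 lower, against 49.4% of all genes called, 24.0% higher and 25.4% lower. The median log2 change over the members was 0.04 in MCF10A, 0.83 in HCT116 and 0.65 in mixed cultures, and the median over all genes was 0.00, 0.01 and 0.01. BAX, BAK1, BBC3, PMAIP1 and BCL2L1 rose in all 3 culture types and BCL2 fell in all 3. By the estimate above the mixed libraries were mostly HCT116 RNA, so the 3 culture types are not 3 separate lines. BCL2L11 and BIK fell in MCF10A and rose in HCT116 and mixed cultures.

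**Figure D1:**
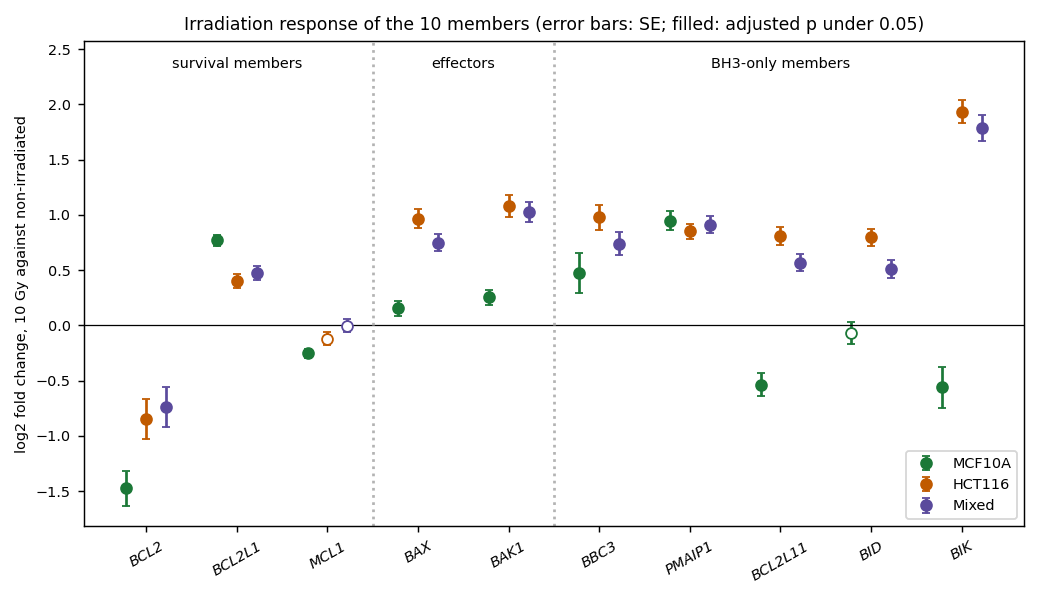
Log2 fold change in RNA after 10 Gy (vertical axis) for the 10 members (horizontal axis, grouped by role). MCF10A, HCT116 and mixed cultures have 1 point each. Bars are standard errors derived from the edgeR log2 change and its F statistic (n = 3 against 3 libraries), and filled points passed the test. BIK lies at -0.56 in MCF10A against 1.94 and 1.78 in HCT116 and mixed cultures, while BCL2 lies below 0 in all 3.

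Per kilobase of annotated exon, the scale on which genes can be set side by side, MCL1 was the most abundant member in 4 of the 6 groups and BCL2 the least abundant in all 6. MCL1 stood at 340 CPM per kb in MCF10A NIR, 289 in MCF10A IR, 63.7 in HCT116 NIR and 59.3 in mixed NIR. After irradiation PMAIP1 took the first place in HCT116, at 71.9 CPM per kb against 58.4 for MCL1, and in mixed cultures, at 83.0 against 60.4. In MCF10A PMAIP1 ranked 5 of 10, at 7.83 CPM per kb in NIR and 15.3 in IR. BCL2 lay between 0.323 CPM per kb in MCF10A IR and 0.889 in MCF10A NIR. On GRCh38 (GENCODE v29) the survival genes span chr1:150574551-150579738 (MCL1), chr20:31664452-31723989 (BCL2L1) and chr18:63123346-63320128 (BCL2), all on the minus strand. BAX spans chr19:48954815-48961798 and BAK1 chr6:33572547-33580293. The BH3-only genes span chr19:47220822-47232766 (BBC3), chr18:59899948-59904306 (PMAIP1), chr2:111119378-111168447 (BCL2L11), chr22:17734138-17774770 (BID) and chr22:43110748-43129712 (BIK).

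**Figure D2:**
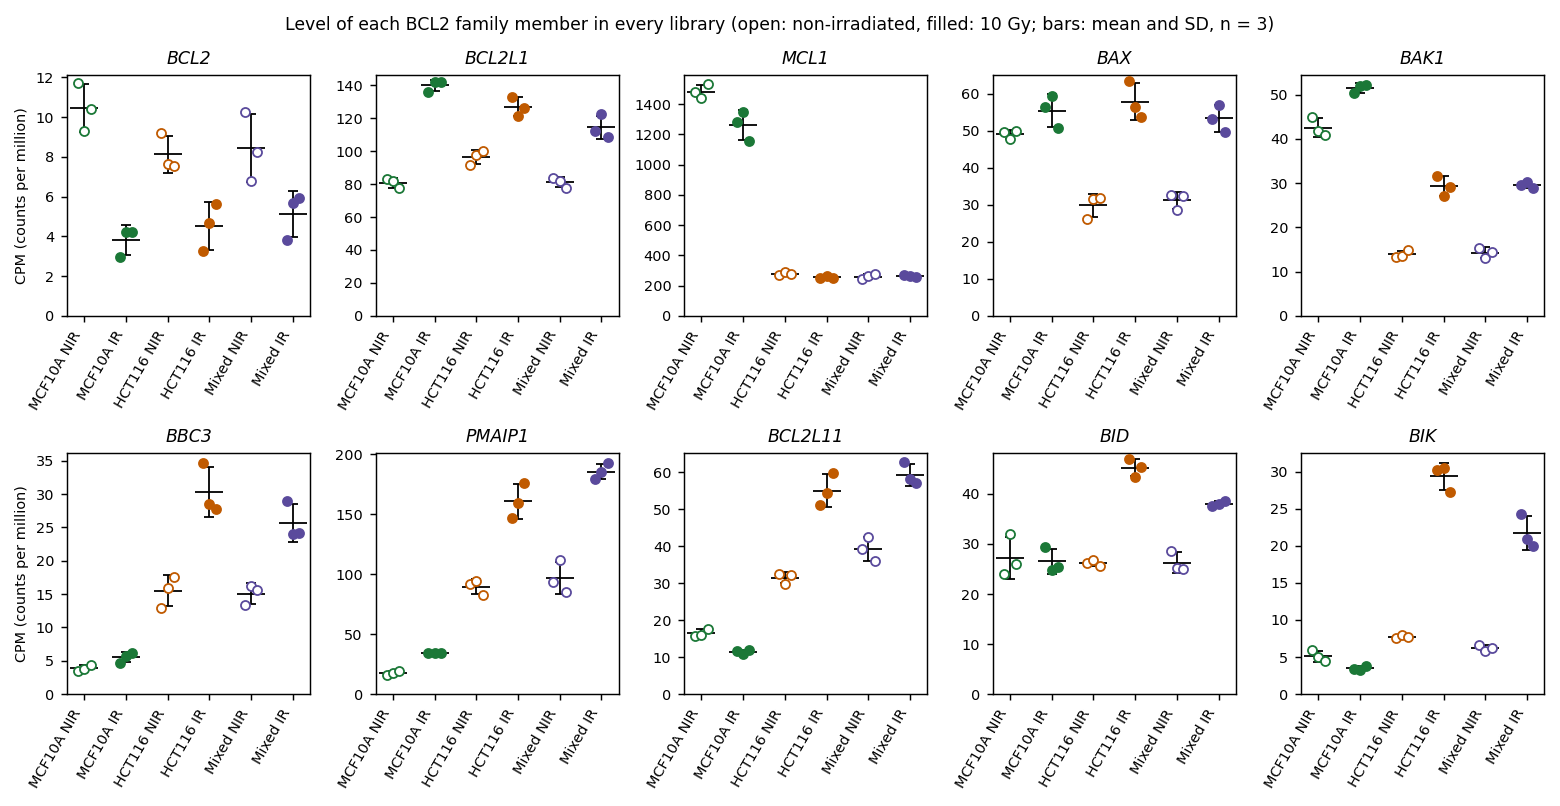
CPM of each member in each of the 18 libraries (1 panel per member, linear axis from 0; 1 point per library; open symbols NIR, filled symbols 10 Gy; bars are group means and SD, n = 3). MCL1 is far above its HCT116 and mixed levels in all 6 MCF10A libraries, and the BIK points of HCT116 IR and mixed IR stand clear of all other BIK points.

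The upstream sequences of 4 members that rose with irradiation in every culture type are shown because p53 and stress-responsive factors are the textbook route to these genes. Each is the 250 bases before the gene start of RefSeq on GRCh38.p14, written 5′ to 3′ on the gene's strand: BAX at chr19:48954625-48954874 (plus strand), BAK1 at chr6:33580277-33580526 (minus), BBC3 at chr19:47232668-47232917 (minus) and PMAIP1 at chr18:59899746-59899995 (plus). Capitals mark matches to the E-box CACGTG in BAX, the p53 half-site in BAK1, the E-box and the AP-1 motif TGANTCA in BBC3, and the CRE half-site TGACGT, here on the opposite strand, in PMAIP1.
BAX: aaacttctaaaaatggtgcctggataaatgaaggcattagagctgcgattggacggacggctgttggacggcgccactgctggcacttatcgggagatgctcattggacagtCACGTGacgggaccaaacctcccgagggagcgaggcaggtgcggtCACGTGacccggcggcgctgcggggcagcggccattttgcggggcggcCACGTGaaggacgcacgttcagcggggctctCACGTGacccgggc
BAK1: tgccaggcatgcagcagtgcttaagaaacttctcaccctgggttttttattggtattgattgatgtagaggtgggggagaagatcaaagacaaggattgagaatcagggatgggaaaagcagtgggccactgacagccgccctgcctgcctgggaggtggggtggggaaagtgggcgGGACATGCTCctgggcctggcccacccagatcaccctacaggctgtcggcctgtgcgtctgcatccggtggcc
BBC3: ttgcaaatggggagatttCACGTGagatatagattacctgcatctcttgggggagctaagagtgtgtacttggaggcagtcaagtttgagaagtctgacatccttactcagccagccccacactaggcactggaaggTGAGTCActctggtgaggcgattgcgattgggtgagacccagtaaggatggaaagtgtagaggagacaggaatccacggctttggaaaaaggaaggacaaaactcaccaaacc
PMAIP1: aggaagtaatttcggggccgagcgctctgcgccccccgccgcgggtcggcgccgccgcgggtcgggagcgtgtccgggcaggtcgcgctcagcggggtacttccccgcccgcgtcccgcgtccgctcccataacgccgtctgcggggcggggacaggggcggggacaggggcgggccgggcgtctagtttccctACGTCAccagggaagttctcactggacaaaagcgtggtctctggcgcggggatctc

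Promoter windows were found for 8 members in the RefSeq table, all but MCL1 and BIK, and both strands were searched over all listed starts. The E-box was in the windows of BAX, BBC3 and BID and of 7.73% of the 27305 genes in the table. BAX held 4 copies of it, beginning 138, 93, 45 and 14 bases before the start. The p53 half-site, which in BAK1 overlaps a GC box, was in 1 member and 6.80% of genes. The AP-1 motif TGANTCA was in 1 member and 8.06% of genes, and the CRE half-site TGACGT was in 1 member and 8.62%. The full CRE TGACGTCA (2.03% of genes), the ATF4 motif TGATGNAA (3.89%) and the E2F motifs TTTCCCGC (1.70%) and TTTGGCGC (0.681%) were in none of the 8. The GC box GGGCGG was in 5 of the 8 members and 46.2% of genes, and CCAAT was in 4 of 8 and 37.0%. BCL2L1, which also rose in every culture type, held none of the searched motifs in either of its windows. These matches describe letters in a window and not bound sites.

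Of the survival members, BCL2 fell with irradiation in every culture type. It is the founding member, an outer-membrane protein that sequesters BH3-only proteins. BCL2 was 11.7, 9.30 and 10.4 CPM in MCF10A NIR and 2.94, 4.23 and 4.23 CPM in MCF10A IR, a 2.78-fold lower level (log2 -1.47, SE 0.16, adjusted p = 7.6e-09). In HCT116 it was 9.20, 7.64 and 7.53 CPM without irradiation and 3.26, 4.68 and 5.63 CPM with it (log2 -0.85, SE 0.18, adjusted p = 0.00046). Mixed cultures went from 10.2, 6.81 and 8.26 CPM to 3.80, 5.67 and 5.91 CPM (log2 -0.74, SE 0.18, adjusted p = 0.0018). Irradiated and non-irradiated libraries did not overlap in any culture type. The 3 irradiated groups overlapped one another, and so did the 3 non-irradiated groups taken as neighbours in the order of their means. The larger fall in MCF10A was not called as a difference between the lines (difference 0.55, SE 0.26, adjusted p = 0.11), although it was called without MCF10A IR replicate 2 (0.74, adjusted p = 0.046), MCF10A IR replicate 3 (0.74, 0.048) or HCT116 IR replicate 1 (0.74, 0.025).

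BCL2L1, which encodes the survival protein BCL-XL, moved the other way. Its level in MCF10A was 83.3, 81.8 and 77.6 CPM without irradiation and 136, 142 and 142 CPM with it, 1.70-fold higher (log2 0.77, SE 0.049, adjusted p = 1.6e-13). HCT116 had 91.6, 97.8 and 100.2 CPM in NIR and 133, 122 and 126 CPM in IR (log2 0.40, SE 0.063, adjusted p = 1.0e-05). In mixed cultures it rose from 83.8, 82.0 and 77.6 CPM to 113, 122 and 109 CPM (log2 0.47, SE 0.064, adjusted p = 2.7e-06). All irradiated libraries were above all non-irradiated ones within each culture type. The rise was smaller in HCT116 than in MCF10A, by 0.44 on the log2 scale (SE 0.080, adjusted p = 7.8e-05). GENCODE v29 places 43.0% of the BCL2L1 exon bases opposite exons of the antisense gene ABALON. ABALON itself was counted at group means of 0.169 to 0.700 CPM, and whether the counting used strand is not given in the sources used here.

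MCL1, whose short-lived protein restrains BAK1 and is the main partner of PMAIP1, was set apart by line more than by irradiation. It was 1478, 1442 and 1532 CPM in MCF10A NIR against 271, 287 and 278 CPM in HCT116 NIR, 6.12-fold lower in HCT116 (log2 -2.61, SE 0.052, adjusted p = 7.7e-18). MCF10A IR had 1282, 1351 and 1158 CPM, so the fall there was small but apart from the NIR libraries (log2 -0.25, SE 0.043, adjusted p = 1.3e-05). HCT116 IR had 252, 265 and 248 CPM, below all 3 NIR libraries, but the change was not called (log2 -0.12, SE 0.057, adjusted p = 0.087). It was called only without HCT116 NIR replicate 1, at -0.15 with an adjusted p of 0.044. Mixed cultures overlapped fully, with 243, 261 and 274 CPM in NIR and 271, 261 and 259.8 CPM in IR (log2 -0.0013, SE 0.057, adjusted p = 0.99). The MCL1 responses of HCT116 and MCF10A differed by 0.06 (SE 0.073, adjusted p = 0.59), and by 0.22 without MCF10A IR replicate 2 (adjusted p = 0.023).

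The make-up of the survival transcripts differed by line and treatment. Of the summed CPM per kb of the 3 genes, MCL1 made up 93.1% ± 0.40 (SD, n = 3) in MCF10A NIR and 87.1% ± 0.99 after irradiation. In HCT116 it made up 68.1% ± 0.71 and 60.1% ± 1.74, and in mixed cultures 70.1% ± 2.11 and 63.3% ± 1.58. In each culture type every irradiated library had a lower MCL1 share than every non-irradiated one. The BCL2L1 share was 6.70% in MCF10A NIR and 12.8% in MCF10A IR, against 31.1 and 39.5% in HCT116. BCL2 stayed below 1% in every group mean, from 0.0979% in MCF10A IR to 0.851% in mixed NIR.

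**Figure D3:**
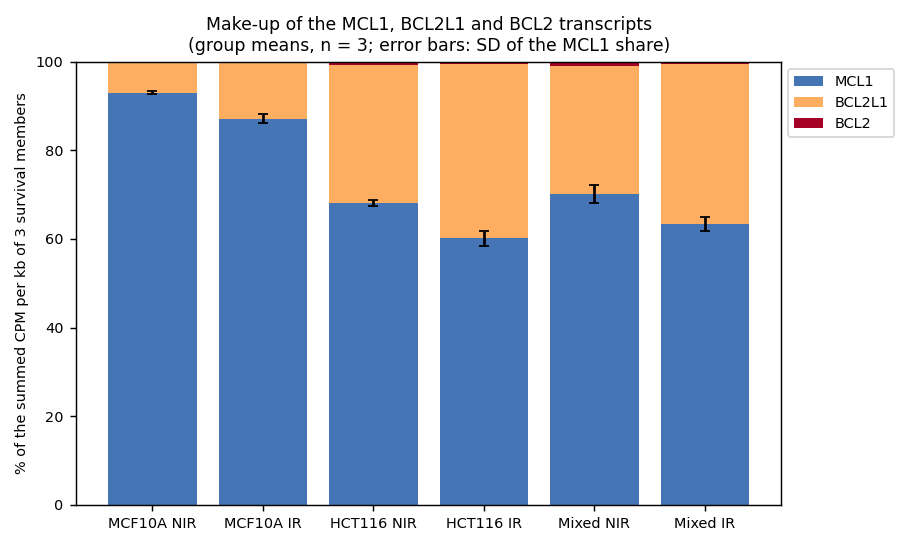
Share of the summed CPM per kb of MCL1, BCL2L1 and BCL2 held by each gene (vertical axis, percent; stacked bars are group means, n = 3; error bars are the SD of the MCL1 share). The MCL1 part is 93.1% in MCF10A NIR and 60.1% in HCT116 IR, and in each culture type it is smaller after 10 Gy.

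Among the effectors, BAX was 49.5, 47.6 and 49.8 CPM in MCF10A NIR and 56.4, 59.3 and 50.6 CPM in MCF10A IR. The groups did not overlap, but the rise of 1.11-fold was close to the threshold (log2 0.16, SE 0.066, adjusted p = 0.047). It was also lost without the low-count filter (0.14, adjusted p = 0.10) and with all 18 libraries in 1 fit (0.15, adjusted p = 0.15). It was not called without any 1 of MCF10A NIR replicates 1, 2 and 3 or of MCF10A IR replicates 1 and 2, with log2 values of 0.097 to 0.17 and adjusted p of 0.069 to 0.28. In HCT116 BAX went from 26.2, 31.5 and 31.7 CPM to 63.3, 56.5 and 53.8 CPM, 1.95-fold higher (log2 0.97, SE 0.089, adjusted p = 3.4e-09). Mixed cultures went from 32.6, 28.5 and 32.4 CPM to 53.3, 57.0 and 49.6 CPM (log2 0.75, SE 0.079, adjusted p = 8.3e-08). BAX in HCT116 started below MCF10A, by 0.92 on the log2 scale, and the 3 irradiated groups overlapped in CPM. The response was larger in HCT116 than in MCF10A by 0.73 (SE 0.12, adjusted p = 1.7e-05).

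BAK1, the other effector, kept its order between the lines. It was 45.0, 41.7 and 40.9 CPM in MCF10A NIR and 50.3, 52.0 and 52.2 CPM in MCF10A IR (log2 0.25, SE 0.065, adjusted p = 0.0015). HCT116 had 13.3, 13.5 and 14.9 CPM in NIR, 3.51-fold below MCF10A, and 31.6, 27.1 and 29.2 CPM in IR, 2.12-fold above its own NIR level (log2 1.08, SE 0.10, adjusted p = 4.2e-09). In mixed cultures BAK1 rose from 15.4, 13.1 and 14.4 CPM to 29.5, 30.3 and 29.0 CPM (log2 1.03, SE 0.092, adjusted p = 6.9e-09). Even after irradiation every HCT116 and mixed library remained below every MCF10A library. BAK1 responded more in HCT116 than in MCF10A, by 0.75 (SE 0.11, adjusted p = 9.0e-06).

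The BH3-only members BBC3 and PMAIP1, both classical p53 targets, were far higher in HCT116 than in MCF10A and rose in every culture type. BBC3, which encodes PUMA and binds all survival members, was 3.53, 3.83 and 4.44 CPM in MCF10A NIR and 4.67, 5.76 and 6.15 CPM in MCF10A IR (log2 0.47, SE 0.18, adjusted p = 0.028). That call was lost without MCF10A NIR replicate 1 (0.40, adjusted p = 0.093), MCF10A IR replicate 2 (0.44, 0.082) or MCF10A IR replicate 3 (0.39, 0.13). In HCT116 BBC3 rose from 13.0, 15.9 and 17.6 CPM to 34.6, 28.5 and 27.8 CPM, 1.97-fold (log2 0.98, SE 0.12, adjusted p = 1.9e-07). Mixed cultures rose from 13.3, 16.3 and 15.7 CPM to 29.0, 24.0 and 24.2 CPM (log2 0.74, SE 0.11, adjusted p = 5.7e-06). The 6 MCF10A libraries were all below the HCT116 and mixed libraries. The BBC3 responses of the lines differed by 0.42, which was not called (SE 0.21, adjusted p = 0.12), though it was without MCF10A IR replicate 3 (0.61, 0.037) or HCT116 IR replicate 2 (0.57, 0.049).

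PMAIP1, which encodes NOXA, was 16.0, 17.6 and 19.0 CPM in MCF10A NIR and 34.0, 33.9 and 34.7 CPM in MCF10A IR, 1.93-fold higher (log2 0.95, SE 0.085, adjusted p = 2.0e-10). In HCT116 it was 91.9, 94.2 and 82.4 CPM in NIR and 147, 159 and 176 CPM in IR (log2 0.85, SE 0.069, adjusted p = 4.4e-10). Mixed cultures had 93.8, 112 and 85.1 CPM in NIR and 179, 185 and 192 CPM in IR (log2 0.91, SE 0.076, adjusted p = 2.3e-09). PMAIP1 was thus 4.46-fold higher in HCT116 than in MCF10A before irradiation and 4.00-fold higher after it. Its response in HCT116 minus that in MCF10A was -0.17 and was not called (SE 0.10, adjusted p = 0.20).

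BCL2L11 and BIK responded in opposite directions in the lines. BCL2L11 encodes BIM, a BH3-only protein known for binding all survival members and for its control by growth factor signalling. It was 15.7, 15.9 and 17.7 CPM in MCF10A NIR and 11.5, 11.0 and 12.0 CPM in MCF10A IR (log2 -0.53, SE 0.11, adjusted p = 9.7e-05). In HCT116 it rose from 32.5, 29.9 and 32.2 CPM to 51.1, 54.3 and 59.8 CPM (log2 0.81, SE 0.080, adjusted p = 1.1e-08). Mixed cultures rose from 39.3, 42.4 and 36.1 CPM to 62.7, 58.3 and 57.0 CPM (log2 0.57, SE 0.076, adjusted p = 2.3e-06). No irradiated library overlapped its non-irradiated group, and the responses of HCT116 and MCF10A differed by 1.27 (SE 0.12, adjusted p = 1.0e-08). In GENCODE v29, 10.9% of BCL2L11 exon bases lie opposite exons of the lincRNA gene MIR4435-2HG. That gene was counted at 69.7 CPM in MCF10A NIR, 44.9 in MCF10A IR, 39.7 in HCT116 NIR and 35.8 in HCT116 IR, and its part in the BCL2L11 counts was not tested.

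BIK, a BH3-only protein found mainly at the endoplasmic reticulum, had the largest response among the members in HCT116 and in mixed cultures. It was 7.55, 7.92 and 7.67 CPM in HCT116 NIR and 30.2, 30.5 and 27.3 CPM in HCT116 IR, 3.83-fold higher (log2 1.94, SE 0.11, adjusted p = 5.2e-13). In mixed cultures it went from 6.66, 5.77 and 6.17 CPM to 24.3, 20.9 and 20.0 CPM, 3.44-fold higher (log2 1.78, SE 0.12, adjusted p = 6.7e-11). MCF10A had 5.91, 4.99 and 4.44 CPM in NIR and 3.42, 3.28 and 3.85 CPM in IR (log2 -0.56, SE 0.19, adjusted p = 0.013). That fall was not called without MCF10A NIR replicate 1 (-0.44, adjusted p = 0.078). The responses of the lines differed by 2.42 (SE 0.19, adjusted p = 2.4e-10), and after irradiation BIK was 7.09-fold higher in HCT116 than in MCF10A.

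BID, which is cleaved by caspase-8 and so links death receptors to the mitochondria, rose in HCT116 and in mixed cultures and was the member not called in MCF10A. In MCF10A the groups overlapped, with 23.9, 32.0 and 25.9 CPM in NIR and 29.4, 24.8 and 25.4 CPM in IR (log2 -0.07, SE 0.098, adjusted p = 0.59). In HCT116 BID went from 26.2, 26.8 and 25.6 CPM to 46.9, 43.4 and 45.4 CPM (log2 0.80, SE 0.080, adjusted p = 1.4e-08). Mixed cultures went from 28.7, 25.2 and 24.9 CPM to 37.6, 38.0 and 38.5 CPM (log2 0.51, SE 0.079, adjusted p = 1.6e-05). The 4 groups of MCF10A NIR, MCF10A IR, mixed NIR and HCT116 NIR could not be ordered, since each overlapped the next. HCT116 and MCF10A differed in their BID responses by 0.79 (SE 0.13, adjusted p = 4.1e-05).

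Tested as a difference between responses, 6 of the 10 members were called between HCT116 and MCF10A, when 37.3% of all 18179 genes were called, 15.4% with a higher and 21.9% with a lower response in HCT116. BIK, BCL2L11, BID, BAK1 and BAX responded more in HCT116 and BCL2L1 responded less. BCL2, BBC3, MCL1 and PMAIP1 were not called. The median difference was 0.64 over the members and -0.10 over all genes.

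Without irradiation, 9 of the 10 members differed between HCT116 and MCF10A, among 74.8% of all genes called, 38.7% higher and 36.1% lower in HCT116. PMAIP1 (log2 2.16), BBC3 (1.78), BCL2L11 (0.74) and BIK (0.39) were higher in HCT116, and MCL1 (-2.61), BAK1 (-1.81), BAX (-0.92), BCL2 (-0.56) and BID (-0.26) were lower. BCL2L1 was not called (0.06, SE 0.061, adjusted p = 0.41). The fitted log2 differences between the lines lie about 0.20 below those of the CPM values (median -0.20 in NIR and -0.23 in IR), because the fit scales libraries by trimmed means and CPM by totals. BCL2L1 is thus higher in all 3 HCT116 libraries by CPM, and BID overlaps in CPM while it is lower in the fit. With upper-quartile scaling the median of all genes was 0.25 higher in HCT116 NIR, BCL2L1 was higher in HCT116 (0.26, adjusted p = 0.00088) and BID was not called (-0.057, adjusted p = 0.62). The BID call (adjusted p = 0.032) was also lost without MCF10A NIR replicate 2 (-0.14, adjusted p = 0.21) or any 1 HCT116 NIR library (-0.25 to -0.27, adjusted p = 0.057 to 0.060). The BIK call (adjusted p = 0.042) was lost without MCF10A NIR replicate 2 or 3 or any 1 HCT116 NIR library (0.29 to 0.42, adjusted p = 0.061 to 0.16).

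After irradiation 9 members again differed between the lines, among 74.9% of all genes called, 38.1% higher and 36.8% lower in HCT116. The 4 BH3-only members BIK (log2 2.83), BBC3 (2.22), BCL2L11 (2.03) and PMAIP1 (2.00) were between 4.00-fold and 7.09-fold higher in HCT116, and BID was 1.46-fold higher (0.54). MCL1 (-2.54), BAK1 (-1.05) and BCL2L1 (-0.37) were lower in HCT116. BCL2 overlapped (0.01, SE 0.23, adjusted p = 0.97). BAX was called lower in HCT116 (-0.16, SE 0.074, adjusted p = 0.047) although its mean CPM was higher there and the libraries overlapped. That call was lost without MCF10A IR replicate 1 or 2 or HCT116 IR replicate 2 or 3 (-0.12 to -0.17, adjusted p = 0.080 to 0.19), and with upper-quartile scaling the difference was 0.017 (adjusted p = 0.84). DESeq2 gave -0.17 with an adjusted p of 0.057.

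Ratios within a library do not depend on how libraries were scaled. They were taken on CPM without exon length, so they compare groups and do not rank the 2 genes of a pair. Per kb, PMAIP1 was above MCL1 in HCT116 IR (71.9 against 58.4). The ratio of PMAIP1 to MCL1 CPM was 0.0118 in MCF10A NIR and 0.0272 after irradiation, 0.321 and 0.631 in HCT116, and 0.375 and 0.703 in mixed cultures. It was thus 2.31, 1.96 and 1.88 times as high after irradiation. BCL2L11 to MCL1 fell to 0.827 of its NIR value in MCF10A (0.0111 to 0.00916) and was 1.91 times as high in HCT116 (0.113 to 0.216) and 1.48 times in mixed cultures (0.152 to 0.225). BAX to BCL2L1 also moved in opposite directions: it went from 0.606 to 0.396 in MCF10A, from 0.308 to 0.455 in HCT116 and from 0.385 to 0.465 in mixed cultures. BBC3 to MCL1 was 1.66, 2.14 and 1.67 times as high after irradiation in MCF10A, HCT116 and mixed cultures. BCL2 to BCL2L1 was 0.209, 0.424 and 0.431 times its NIR value. In all 15 comparisons of a ratio the irradiated and non-irradiated libraries were apart, and each exact 2-sided permutation p was 0.1, the smallest possible. The ratios were built from members whose changes are given above, so this separation is not separate evidence. Ratios of other gene pairs were not examined.

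**Figure D4:**
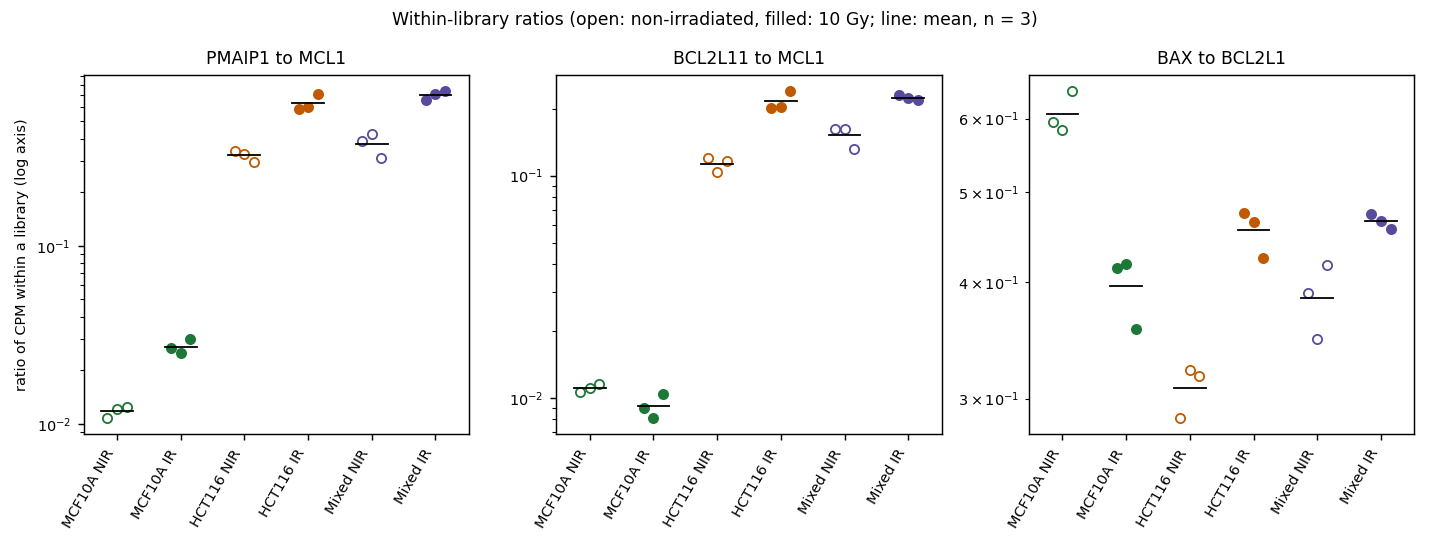
Ratio of CPM within each library (log axis) for PMAIP1 to MCL1, BCL2L11 to MCL1 and BAX to BCL2L1 (1 point per library; open NIR, filled 10 Gy; lines are group means, n = 3). After irradiation the BAX to BCL2L1 points lie lower in MCF10A and higher in HCT116 and mixed cultures.

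The mixed cultures differed from HCT116 in few members. Their medium is not given in the labels, so mixing and medium cannot be told apart in this comparison. Without irradiation none of the 10 members was called between mixed and HCT116 by edgeR, when 2.04% of all genes were called, 0.887% higher and 1.15% lower in mixed cultures. The lowest adjusted p among the members belonged to BCL2L11 (log2 0.33, SE 0.085, adjusted p = 0.050) and BCL2L1 (-0.24, SE 0.066, adjusted p = 0.075). DESeq2 called these 2, when it called 573 of all 16455 genes. For both the libraries were apart. BCL2L11 was called under 6 of 13 alternatives, among them without mixed NIR replicate 3 (0.39, adjusted p = 0.033), and BCL2L1 under 3 of 13. After irradiation 3 members were called, when 8.56% of all genes were, 5.08% higher and 3.48% lower in mixed cultures.

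BIK was lower in mixed IR than in HCT116 IR (log2 -0.45, SE 0.093, adjusted p = 0.0019), BID was lower (-0.26, SE 0.071, adjusted p = 0.018) and PMAIP1 was higher (0.20, SE 0.058, adjusted p = 0.028), all with libraries apart. The BID call was lost without HCT116 IR replicate 1 (-0.23, adjusted p = 0.066) or mixed IR replicate 2 or 3 (-0.26, adjusted p = 0.072 and 0.070), and the PMAIP1 call without HCT116 IR replicate 1 or 2 or mixed IR replicate 2 or 3 (0.14 to 0.20, adjusted p = 0.092 to 0.15). BBC3, not called with all libraries, was called lower in mixed IR without mixed IR replicate 1 (-0.35, adjusted p = 0.032). Tested as a difference between responses, none of the 10 members was called between mixed cultures and HCT116 by edgeR or by DESeq2, when 0.830% of all genes were called. The lowest adjusted p among the members belonged to BID (-0.28, adjusted p = 0.26) and BCL2L11 (-0.23, adjusted p = 0.39). These comparisons share the HCT116 libraries with those between the lines.

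Of 11 other BCL2 family genes, 9 passed the low-count filter in each irradiation comparison. The counts below stand beside 55.4, 52.5 and 49.4% of all genes called after irradiation in MCF10A, HCT116 and mixed cultures. In MCF10A 5 were called, 4 higher and 1 lower, with a median log2 change of 0.26 against 0.00 over all genes. HRK, a BH3-only gene, rose (1.65, adjusted p = 0.012) at the low level of 1.04 CPM in IR, BMF, another BH3-only gene, rose (0.90, adjusted p = 0.037), both with overlapping libraries, and BCL2L12 fell from 30.6 to 14.7 CPM (-1.08, adjusted p = 1.0e-09). In HCT116 3 were higher and 2 lower, with a median of 0.06. BMF fell there from 4.68 ± 1.04 to 0.642 ± 0.320 CPM (SD, n = 3; log2 -2.90, adjusted p = 6.6e-08), BCL2L12 fell (-0.90, adjusted p = 4.6e-08) and BCL2L15 rose from 2.17 to 10.8 CPM (2.31, adjusted p = 1.9e-10). In mixed cultures 4 were higher and 2 lower, with a median of 0.09. The largest changes there were in BCL2L15 (2.04), BCL2L14 (1.31, from 0.410 to 1.03 CPM) and BMF (-0.73, with overlapping libraries). The responses of HCT116 and MCF10A differed for BMF (-3.88), HRK (-2.03) and BCL2L15 (1.49). For BCL2L14 the difference was not called (0.07), but its SE of 1.33 is too wide to show that the responses were alike. BCL2L14 was at 0.138 CPM in MCF10A NIR and 0.246 CPM in MCF10A IR. Between the lines without irradiation 8 of 9 were called, 5 higher and 3 lower in HCT116, against 74.8% of all genes. HRK (4.23), BCL2L15 (2.42) and BMF (1.99) were the largest of them, against low MCF10A NIR levels of 0.326, 0.347 and 1.01 CPM.

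The caspase pathway downstream of the mitochondria was represented by 16 genes, all tested. After irradiation 8 were called in MCF10A (3 higher, 5 lower, median -0.03), 4 in HCT116 (3 higher, 1 lower, median 0.13) and 8 in mixed cultures (4 higher, 4 lower, median 0.06), against 55.4, 52.5 and 49.4% of all genes called. BIRC5, which encodes survivin, a caspase-binding protein with a role in mitosis, fell in all 3, by 1.23, 1.27 and 1.01 on the log2 scale. CYCS, which encodes cytochrome c, fell by 0.62 in MCF10A and rose in HCT116 (0.39) and in mixed cultures (0.21). DFFA, the inhibitor of the caspase-activated nuclease, fell in MCF10A (-0.28, adjusted p = 4.7e-05) and rose in HCT116 (0.59) and in mixed cultures (0.59), and the responses of HCT116 and MCF10A differed by 0.79. DIABLO, whose protein counters the IAP inhibitors, rose in MCF10A (0.70) and was not called in HCT116 (0.12) or mixed cultures (0.36), and its responses in HCT116 and MCF10A were not called different (-0.66, adjusted p = 0.087). ENDOG, a mitochondrial nuclease, fell in mixed cultures from 4.65 to 3.18 CPM (-0.58, adjusted p = 0.028), with overlapping libraries. It was not called in HCT116 (-0.46, adjusted p = 0.073), where the libraries were apart, or in MCF10A (0.25). Between the lines without irradiation 15 of 16 were called against 74.8% of all genes, 6 higher and 9 lower in HCT116, among them BIRC3 (-3.38) lower and the initiator CASP9 (0.91) higher.

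A list drawn up around the turnover or stability of the MCL1 protein held 8 genes. TRIB1 and DUSP4 are in it without an established role in that turnover, and the MCL1 protein was not measured. Of the 8 genes, 6 were called after irradiation in MCF10A (4 higher, 2 lower) and 8 each in HCT116 and in mixed cultures (4 higher, 4 lower). The median changes were 0.14, 0.06 and 0.04. Of all genes 55.4, 52.5 and 49.4% were called in these comparisons. CDC20, an activator of the anaphase-promoting complex, fell by 1.51, 1.69 and 1.28, and the deubiquitinase gene USP13 fell by 0.99, 0.59 and 0.61 in MCF10A, HCT116 and mixed cultures. FBXW7, a ubiquitin ligase subunit that targets MCL1, rose in HCT116 (0.60) and mixed cultures (0.48) and was not called in MCF10A (0.03). In the same order of cultures as for CDC20, TRIB1 rose by 0.48, 0.49 and 0.35 and DUSP4, a MAP kinase phosphatase gene, by 0.39, 0.48 and 0.74. Between the lines without irradiation 7 of 8 were called, against 74.8% of all genes, and TRIB1 was 13.8-fold higher in HCT116 while DUSP4 (-0.77) and USP9X (-0.65), a deubiquitinase gene of MCL1, were lower.

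The gene whose log2 level followed each member most closely over the 18 libraries was found among 11301 genes. MCL1 was followed by ZBTB16 (Pearson r = 0.998), which averaged 52.7 CPM in MCF10A NIR and 0 in HCT116 NIR. For BAK1 it was BLCAP (0.993), for BBC3 CYFIP2 (0.993), for PMAIP1 C11orf54 (0.993), for BCL2L11 MID1 (0.989) and for BIK NEU3 (0.983). BCL2L1 was matched by MAN2B1 (0.973), BAX by CCDC90B (0.972), BID by SRSF8 (0.965) and BCL2 by SUV39H2 (0.946). The libraries share line and treatment, so these values are descriptions without a test.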

How the data were processed

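Poly(A)-selected RNA of 18 libraries was sequenced with a stranded, paired-end kit, per the labels' protocols. The authors deposited raw counts per gene symbol, 1 table per library, without normalization, and fastp, STAR, featureCounts and GRCh38 are named in the submitters' processing notes. The annotation, the strand setting and whether mates were counted singly are not given in the sources used here. Of the values from 1 to 10, 68.3% were even, so halved counts were tried as an alternative.

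The 10 genes and the accompanying lists were chosen with earlier results of these data known. Groups came from the sample labels. CPM was computed from library totals, and CPM per kb from merged GENCODE v29 exons. Tests used edgeR 4.0.16 in R 4.3.3 on the compared groups alone (TMM, filterByExpr, glmQLFTest, 2-sided, Benjamini-Hochberg over all genes tested, threshold 0.05), and differences between responses were interaction terms of 4 groups. Log2 fold changes are given with standard errors, which were derived from the log2 change and the F statistic of the edgeR test. The p-values set a difference against the spread between the 3 replicates of each group, moderated over all genes. The code was tested on simulated data. Named genes outside the 10 are up to 3 per list and comparison with the largest called change at 1 CPM or more, and a few results are not reported here. The genes followed most closely were taken by Pearson r of log2(CPM + 0.5) among genes of mean CPM 5 or more. The MCF10A share used genes of at least 20 CPM in 1 line and under 1 CPM in the other. Alternatives were RLE and upper-quartile factors, DESeq2 1.42.0, no filter, halved counts, all 18 libraries in 1 fit, the replicate number as a block and leaving out each library. Replicates differed by more than counting error, with a chi-squared per gene of 2.48 to 7.56 on halved counts. Promoter sequences are RefSeq's on GRCh38.p14.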

Additional observations from a re-analysis of the deposited data

Results flagged for a closer look

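The response to 10 Gy differed between HCT116 and MCF10A, by a test of the difference itself (edgeR interaction term, adjusted over all genes), for 6 of the 10 members, when 37.3% of all 18179 genes were called, 15.4% higher and 21.9% lower. The response of HCT116 minus that of MCF10A was 2.42 on the log2 scale for BIK, 1.27 for BCL2L11, 0.786 for BID, 0.75 for BAK1, 0.734 for BAX and -0.443 for BCL2L1. BIK and BCL2L11 fell in MCF10A and rose in HCT116, whereas BCL2L1, BAK1 and BAX rose in both. The rise of BAX in MCF10A (0.16, adjusted p = 0.047) was called under 6 of 13 alternatives and was 0.097 without MCF10A IR replicate 2 (adjusted p = 0.28). The fall of BIK there was not called without MCF10A NIR replicate 1 (-0.44, adjusted p = 0.078). These 6 differences were called under all 19 alternatives that were run. The lines also differed in medium, which cannot be told apart from the line.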

How the results depend on the processing

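The 9 calls in HCT116 and the 9 in mixed cultures after irradiation held under all 13 alternatives of each. In MCF10A the number of members called was 8 or 9 under other settings and 6 to 8 with 1 library left out. The labels do not say that equal replicate numbers mark a pair, and same-numbered residuals correlated between -0.217 and 0.238 over 15 pairs of groups. The highest values were in the pairs of the mixed comparisons. They were 0.0146 to 0.238 between HCT116 NIR and mixed NIR and 0.0767 to 0.2305 between HCT116 IR and mixed IR. Whether these libraries are paired was not tested. With the replicate block, 2 members were called between mixed and HCT116 in NIR and 5 in IR, against 0 and 3 without it. Over all genes the block moved the calls from 335 to 716 in NIR and from 1467 to 2220 in IR, and in NIR there were 573 with DESeq2, 671 without the filter and 768 with all 18 libraries. With the block, BCL2L11 was 0.33 (adjusted p = 0.019) and BCL2L1 -0.24 (adjusted p = 0.036) in NIR, and BIK was no longer called between the lines in NIR (0.40, adjusted p = 0.075). The block changed no other call but those of BCL2L1, BCL2L11 and BBC3 in these mixed comparisons. Mixed against HCT116 in NIR gave 2 members with DESeq2, 1 without the filter, 1 with halved counts, 2 with all 18 libraries and 0 to 1 with 1 library left out, and in IR it gave 1 with all 18 libraries and 1 to 4 with 1 left out. Other calls moved by a setting were BIK between the lines in NIR, lost without the filter (0.37, adjusted p = 0.072), BAX between the irradiated lines, lost with all 18 libraries (-0.096, adjusted p = 0.30), and PMAIP1 (0.23, adjusted p = 0.060) and BID (-0.23, adjusted p = 0.13) between mixed and HCT116 in IR, lost with all 18 libraries. The difference of responses between the lines was called for BBC3 without the filter (0.52, adjusted p = 0.036) and with all 18 libraries (0.52, adjusted p = 0.045), and for BCL2 without the filter (0.65, adjusted p = 0.040).

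Of the signs that turned, only that of BAX belonged to a called value. BID in MCF10A was 0.018 with upper-quartile factors and -0.16 to 0.078 with 1 library left out. MCL1 in mixed cultures was 0.034 with upper-quartile factors, 0.0037 with halved counts, 0.038 with all 18 libraries, 0.000398 with the block and -0.059 to 0.030 with 1 left out. BAX between the irradiated lines was 0.017 with upper-quartile factors. With 1 library left out, BCL2 between the irradiated lines was -0.17 to 0.19. For mixed against HCT116 in NIR, BAX was -0.015 to 0.14, BAK1 -0.000070 to 0.11, BBC3 -0.14 to 0.090, BCL2 -0.093 to 0.19 and BID -0.044 to 0.053. In IR, BAK1 was -0.046 to 0.069 and BCL2 -0.0086 to 0.35, and in the difference of responses PMAIP1 was -0.039 to 0.17 and BCL2 -0.090 to 0.26. The cause of these turns was not tested. Upper-quartile factors moved the share of higher genes among calls from 47.4 to 57.5% in MCF10A and from 51.8 to 62.4% between the lines in NIR. The fit of all 18 libraries moved it from 41.3 to 51.8% for the difference of responses between the lines. The MCF10A share rose by 0.694 points with genes of 50 CPM or more, 0.667 points with a ceiling of 0.5 CPM and 0.780 to 0.845 points with 1 library left out.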

Other observations

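BMF, a BH3-only gene outside the 10 members, behaved differently in HCT116 alone and in the mixed cultures after irradiation. It was 0.427, 0.490 and 1.01 CPM in HCT116 IR and 2.35, 1.79 and 3.04 CPM in mixed IR, against 3.65, 4.66 and 5.72 CPM in HCT116 NIR and 2.65, 4.09 and 4.86 CPM in mixed NIR. The fall in mixed cultures was smaller by 2.18 on the log2 scale (edgeR interaction term, SE 0.42, adjusted p = 0.0080). MCF10A IR itself held 1.14, 2.23 and 2.41 CPM, and MCF10A RNA was an estimated 1.23% of the mixed IR libraries. The cause of the difference was not tested. The gene was singled out after its values were seen, and BMF was the only one of the 9 tested genes in its list to be called in that difference.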
